A study of Mus musculus with 10 samples.

Results

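The genes described here are the epidermal growth factor (EGF) receptor family, its ligands and the receptor Met, in 4T1 cells grown in collagen gels. The receptors are Egfr, Erbb2, Erbb3 and Met, and the ligands are Areg, Ereg, Hbegf, Tgfa, Btc and Nrg1. They were chosen by name, and each was read from the brightest array row that the platform annotation gives to that single symbol. Of the 10 listed genes, 9 were read this way among 30142 genes in all. Areg was not analysed here. Ereg lay below the signal floor of log2 5.16 (the median of all transcript rows), so 8 members were among the 18119 genes tested. 4T1 is an established mouse mammary carcinoma line that metastasises when grafted into mice. All samples were this line, with no genetic change or drug named in the labels, started at 50000 cells and kept for 5 days in collagen gels in RPMI medium with serum. LD gels (low density, 5 arrays) had 2 mg/mL of collagen and HD gels (high density, 5 arrays) had 3.5 mg/mL, each sample being total RNA on 1 Affymetrix MTA 1.0 array. The labels do not say whether the 5 samples of a group were independent cultures, so p-values here measure only the sample-to-sample spread, which may be of technical origin. The comparison asks whether the messages for these growth factor receptors and ligands differ with the density of the collagen around the cells.

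EGF receptors are membrane tyrosine kinases that a ligand brings together in pairs, and the pair then signals through Ras and ERK and through PI3K and Akt. Egfr binds Areg, Ereg, Hbegf, Tgfa and Btc. Erbb2 has no known ligand and serves as the preferred partner of the others, and Erbb3, whose own kinase is weak, binds Nrg1 and links to PI3K. The ligands are made as membrane proteins and are cut free by proteases such as Adam17. Met is the receptor of hepatocyte growth factor and belongs to another kinase family, but shares the same downstream path and is known to cooperate with Egfr and Erbb3 in carcinoma cells.

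The members moved in both directions. Btc and Met were higher in HD, and Erbb3, Tgfa and Egfr were lower, while Erbb2, Hbegf and Nrg1 did not pass the test; Egfr lost its direction when each array was rescaled by its control rows. As deposited, the changes of the tested members were at most 1.45-fold, while Btc differed by 0.58 on the log2 scale after control-row scaling. Of the 8 tested members, 5 passed the test (limma, Benjamini-Hochberg adjusted p under 0.05), and over all genes tested the share was 50.2%. In the higher direction 2 of 8 passed against 31.1% of all genes, and in the lower direction 3 of 8 against 19.2%. The same 5 members were those whose LD and HD values did not overlap, a pattern found for 36.2% of all genes. With only 8 members, nothing is read from these shares, which also depend on scaling: 42.7% of all genes were higher and 16.4% lower after quantile normalization, and 50.1% and 18.7% after control-row scaling. Each array measured bulk RNA, so fewer cells that make a message and less message per cell cannot be told apart. Markers of cell types also moved with the groups. Among epithelial markers 5 of 9 were lower in HD and none higher, and of the tested markers of other cells 2 of 5 fibroblast, 1 of 3 macrophage and 1 of 3 endothelial genes were higher and 1 macrophage gene, Cd68, was lower. Their part in the members' changes was not tested.

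**Figure D1:**
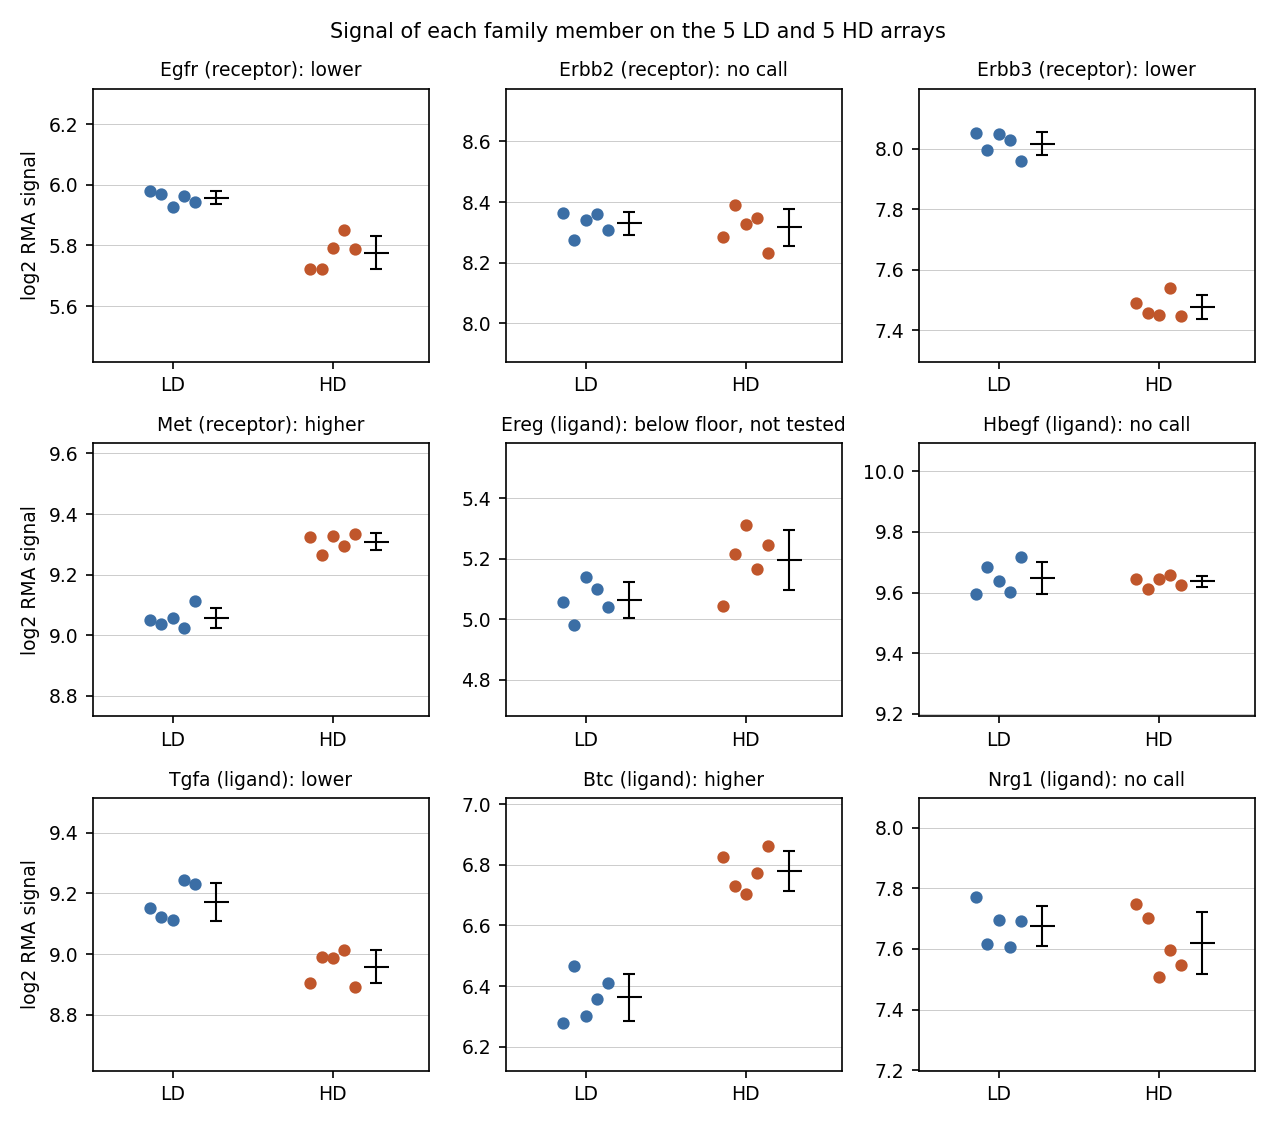
Each panel plots the log2 RMA signal of 1 member on the 5 LD arrays (blue) and the 5 HD arrays (orange), with the mean and SD of each group beside the points; every vertical axis spans 0.9 log2 units but starts at a different level. Erbb3 (8.02 to 7.48) shows the widest gap, Btc and Met are higher in HD, Egfr and Tgfa are lower as deposited (Egfr differed by 0.04 after control-row scaling), and Erbb2, Hbegf, Nrg1 and Ereg overlap.

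Promoters of called members are shown because members moved in opposite directions and their upstream sequence can be compared. From RefSeq's promoter table (GRCm38.p6), promoters of 6 of the 10 members were read, and those of the others were not analysed here. The 250 bases before the annotated start of 4 called members, all but Erbb3, follow, read 5′ to 3′ on the strand of the gene. Capitals mark matches, on either strand, to the core of the hypoxia-inducible factor motif (ACGTG or GCGTG), the AP-1 motif (TGANTCA) and the GC box (GGGCGG).
Btc (chr5:91402995-91403244, minus strand, higher in HD): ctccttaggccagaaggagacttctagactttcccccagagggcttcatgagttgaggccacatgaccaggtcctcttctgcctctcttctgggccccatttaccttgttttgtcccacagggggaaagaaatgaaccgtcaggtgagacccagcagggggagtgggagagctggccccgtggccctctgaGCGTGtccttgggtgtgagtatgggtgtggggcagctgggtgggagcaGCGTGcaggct
Met (chr6:17463707-17463956, plus strand, higher in HD): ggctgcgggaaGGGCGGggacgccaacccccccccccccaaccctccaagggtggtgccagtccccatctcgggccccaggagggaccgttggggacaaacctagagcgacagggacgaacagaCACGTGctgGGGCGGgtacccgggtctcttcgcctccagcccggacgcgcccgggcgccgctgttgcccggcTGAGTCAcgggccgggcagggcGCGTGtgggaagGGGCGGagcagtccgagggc
Tgfa (chr6:86194972-86195221, plus strand, lower in HD): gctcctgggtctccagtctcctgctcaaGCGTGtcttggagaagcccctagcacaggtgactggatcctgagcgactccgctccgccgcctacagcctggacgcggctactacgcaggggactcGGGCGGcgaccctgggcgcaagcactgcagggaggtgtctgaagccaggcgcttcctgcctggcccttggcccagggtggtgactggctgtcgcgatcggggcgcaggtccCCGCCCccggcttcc
Egfr (chr11:16751953-16752202, plus strand, lower in HD as deposited): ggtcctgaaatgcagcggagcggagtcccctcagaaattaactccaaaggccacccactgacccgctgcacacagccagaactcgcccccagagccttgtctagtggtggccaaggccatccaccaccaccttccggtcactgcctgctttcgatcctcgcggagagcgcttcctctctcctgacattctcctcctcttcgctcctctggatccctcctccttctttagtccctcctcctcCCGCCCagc
Met had the most matches of the 6 members whose promoters were read. It held 3 GC boxes, 1 AP-1 match that began 54 bases before the start, 1 GCGTG match, and 2 ACGTG matches that overlap on opposite strands within a single CACGTG. Btc held 2 GCGTG matches, beginning 59 and 11 bases before the start, and none of the other motifs. Tgfa held 1 GCGTG match and 2 GC boxes, and Egfr held 1 GC box, on the opposite strand. Among 32851 RefSeq promoters cut to the same 250 bases, 16.6% held ACGTG, 28.2% GCGTG, 6.75% the AP-1 motif and 32.7% the GC box. The 4 stretches were rich in G and C, at 59.6% in Btc, 74.0% in Met, 69.2% in Tgfa and 60.8% in Egfr. A match is a description of the sequence and does not show that a factor binds there.

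Among the receptors, Erbb3 changed most. Its log2 signal was 8.05, 7.997, 8.05, 8.03 and 7.96 on LD arrays 1 to 5 and 7.49, 7.46, 7.45, 7.54 and 7.45 on HD arrays 1 to 5. All HD arrays lay below all LD arrays, and the gap between the groups was many times the spread within them. The mean went from 8.02 ± 0.039 (SD, n = 5) down to 7.48 ± 0.039, 1.45-fold lower (HD minus LD -0.54 on the log2 scale, SE 0.035, limma adjusted p = 8.2e-08). Only 3.00% of all genes tested changed by more in either direction. Over the 20 alternative settings the change ran from -0.56 to -0.48.

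Erbb2, the partner of Erbb3 in the neuregulin receptor, showed no such gap. It read 8.36, 8.28, 8.34, 8.36 and 8.31 in LD and 8.29, 8.39, 8.33, 8.35 and 8.23 in HD. The groups overlapped fully, and both the highest and the lowest array were HD arrays. The difference was -0.01 with a 95% interval of -0.09 to 0.07 (limma adjusted p = 0.80), so a change beyond those bounds was not seen. Within arrays, the log2 ratio of Erbb3 to Erbb2 was 0.53 ± 0.031 (SE) lower in HD than in LD. The gap between the Erbb3 groups exceeded the whole range of Erbb2. This ratio therefore had to separate LD from HD, and no test of it is given. All 28 pairs of members were compared after the values of single members had been seen. Of these, 22 passed a two-sided exact permutation test at an adjusted p under 0.05. The smallest p that 5 against 5 can give is 0.0079. Pairs that join a member without overlap in one direction to one in the other had to pass. The same held where the gap between the groups of one member exceeded the whole range of the other. Those pairs were Erbb3 with Erbb2, Egfr, Tgfa, Hbegf and Nrg1, Btc with Erbb2 and Hbegf, and Met with Hbegf. The count of 22 is therefore not read as a result.

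Egfr was the dimmest of the tested members against the array's negative control rows. It read 5.98, 5.97, 5.93, 5.96 and 5.94 in LD and 5.72, 5.72, 5.79, 5.85 and 5.79 in HD. The groups did not overlap as deposited, with the HD arrays more scattered (SD 0.054) than the LD arrays (SD 0.021). The log2 change was -0.18 ± 0.035 SE (limma adjusted p = 7.8e-04), 1.13-fold lower. The median negative control row had a signal of 5.67 ± 0.052 on LD arrays and 5.42 ± 0.12 on HD arrays (SD, n = 5 each), and 57.6% and 58.7% of those rows were dimmer than Egfr. When each array was scaled so that its negative and positive control medians were equal between arrays, Egfr differed by 0.039 (limma adjusted p = 0.56), so neither its direction nor its call held there.

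Met moved against Erbb3. It read 9.05, 9.04, 9.06, 9.03 and 9.11 in LD and 9.33, 9.27, 9.33, 9.29 and 9.33 in HD. Every HD array lay above every LD array. The mean rose from 9.06 ± 0.034 (SD, n = 5) to 9.31 ± 0.028, a 1.19-fold difference (HD minus LD 0.25 on the log2 scale, SE 0.033, limma adjusted p = 2.8e-05). The smallest value under any alternative was 0.19, with the control-row scaling. The ratio of Met to Erbb3 within arrays was 0.79 ± 0.038 (SE) higher in HD on the log2 scale and 0.67 higher after control-row scaling. As neither gene's groups overlapped and they moved in opposite directions, the ratio had to separate the groups, and no test of it is given.

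Among the ligands, betacellulin (Btc), which binds both Egfr and Erbb4, rose most. Its signal was 6.28, 6.47, 6.30, 6.36 and 6.41 in LD and 6.83, 6.73, 6.70, 6.77 and 6.86 in HD. The lowest HD array exceeded the highest LD array. The mean rose from 6.36 ± 0.077 (SD, n = 5) to 6.78 ± 0.066, a 1.33-fold difference (HD minus LD 0.42 on the log2 scale, SE 0.045, limma adjusted p = 6.0e-06). It was a dim gene as well, brighter than 66.6% of the negative control rows in LD and 80.4% in HD, so its fold is limited by background. The change was 0.50 after quantile normalization and 0.58 after control-row scaling.

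Transforming growth factor alpha (Tgfa), an Egfr ligand, was lower in HD. It read 9.15, 9.12, 9.11, 9.24 and 9.23 in LD and 8.91, 8.99, 8.99, 9.01 and 8.89 in HD. The highest HD array stayed under the lowest LD array. The mean fell from 9.17 ± 0.062 (SD, n = 5) to 8.96 ± 0.055, 1.16-fold lower (HD minus LD -0.21 on the log2 scale, SE 0.041, limma adjusted p = 6.6e-04). The call held under all 20 alternatives, at -0.27 to -0.19.

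Heparin-binding EGF (Hbegf), a ligand of Egfr and Erbb4, did not pass the test. It read 9.60, 9.68, 9.64, 9.60 and 9.72 in LD and 9.64, 9.61, 9.64, 9.66 and 9.63 in HD. The HD arrays all lay within the LD range. The difference was -0.01, with a 95% interval of -0.09 to 0.06 (limma adjusted p = 0.82), and -0.11 after control-row scaling (limma adjusted p = 0.040), where it passed. The ratio of Tgfa to Hbegf within arrays was lower in HD, since Hbegf less Tgfa rose by 0.20 ± 0.043 (SE) on the log2 scale (exact permutation p = 0.0079, 0.011 adjusted over the 28 pairs). This pair was picked after the values were seen. As Tgfa alone separated the groups and Hbegf hardly moved as deposited, the ratio adds little to the change of Tgfa.

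Neuregulin 1 (Nrg1), the ligand of Erbb3, had rows that differed. The brighter row read 7.77, 7.62, 7.69, 7.61 and 7.69 in LD and 7.75, 7.70, 7.51, 7.595 and 7.55 in HD. Its groups overlapped, and the difference was -0.06 with a 95% interval of -0.17 to 0.05 (limma adjusted p = 0.37). The dimmer row, also placed on chromosome 8 by its identifier, lay below the floor, with LD at 4.07 ± 0.16 and HD at 3.68 ± 0.12 (SD, n = 5 each). It differed by -0.38 (limma adjusted p = 0.0021 in the fit of all single-symbol rows), but only 19.4% and 17.3% of the negative control rows were dimmer. Nrg1 has many transcript forms, and which of them each row measures was not tested.

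Epiregulin (Ereg), a further ligand of Egfr and Erbb4, was below the floor on both of its rows. The brighter row read 5.06, 4.98, 5.14, 5.10 and 5.04 in LD and 5.05, 5.22, 5.31, 5.17 and 5.25 in HD. The groups overlapped through HD array 1. With no floor, the difference was 0.13 ± 0.051 SE (limma adjusted p = 0.066), and the other row differed by 0.10 (limma adjusted p = 0.080). In RefSeq's gene table Epgn, Ereg, Areg and Btc are consecutive protein-coding genes on chromosome 5. Epgn (epigen, another Egfr ligand) was dimmer still, at 4.09 in LD and 4.19 in HD, so of the 3 neighbours read here Btc was the one above the floor.

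**Figure D2:**
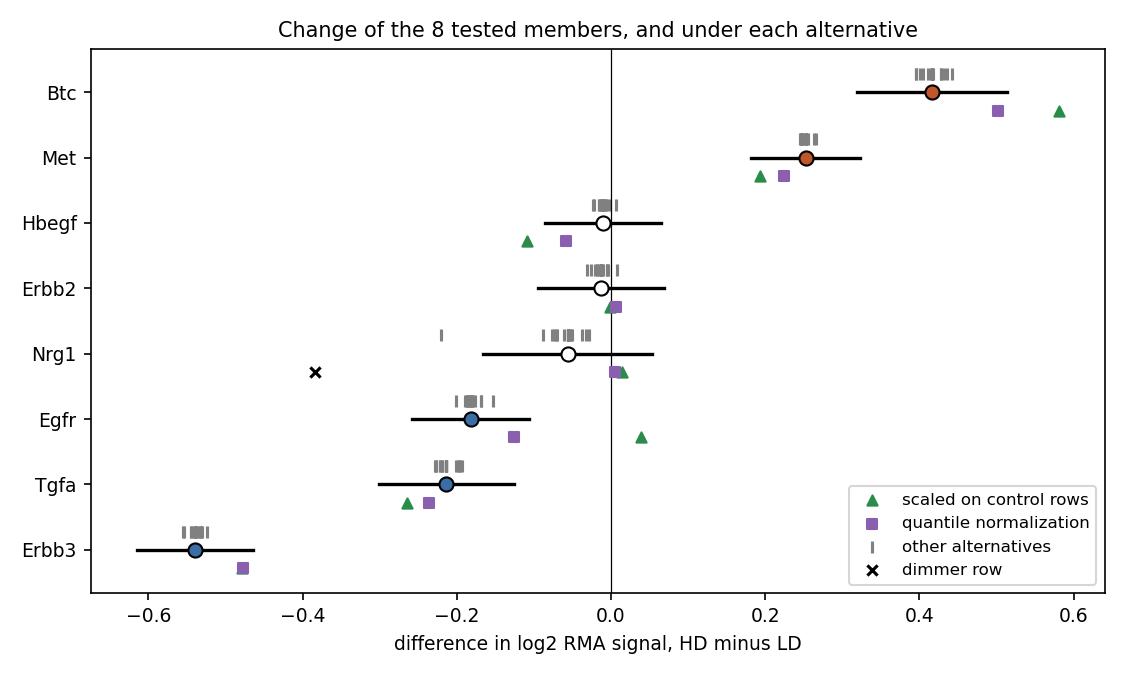
The difference in log2 RMA signal (HD minus LD) of the 8 tested members is plotted as a circle with its 95% interval (orange called higher, blue called lower, white no call), with the same difference under each alternative beside it. Erbb3, Tgfa, Met and Btc stay on their side of 0 under every alternative drawn, whereas Egfr moves from -0.18 to 0.04 with control-row scaling (green triangle) and the dimmer row of Nrg1 (cross) lies at -0.38.

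Set among all genes tested, the members ranged from some of the most changed to some of the least. The median change of all genes was 0.06 and the median absolute change 0.12. Larger absolute changes than that of Btc were seen in 6.88% of genes, of Met in 20.0%, of Tgfa in 25.6% and of Egfr in 31.7%. After control-row scaling the shares were 2.62% for Btc, 5.87% for Erbb3, 39.0% for Tgfa, 55.2% for Met and 90.5% for Egfr. Erbb2 and Hbegf were among the least changed, with 94.8% and 95.7% of genes moving more as deposited. Higher genes were 61.8% of all calls as deposited, 72.3% after quantile normalization and 72.8% after control-row scaling.

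**Figure D3:**
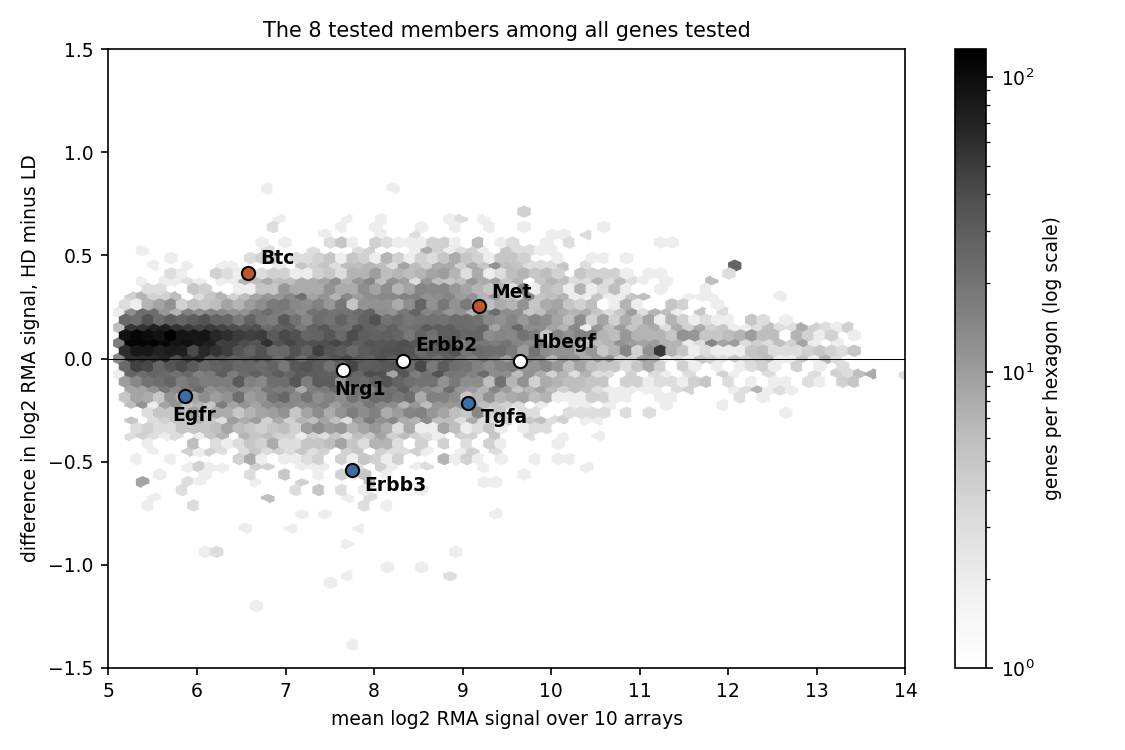
Each hexagon counts genes by mean log2 RMA signal over the 10 arrays (horizontal) and by the difference HD minus LD (vertical), with the 8 tested members as circles (orange called higher, blue called lower, white no call); 22 genes fall outside the axes. Erbb3 (-0.54) lies lowest and Btc (0.42) highest of the members, with many genes farther from 0 than either, Egfr is dim and lower as deposited only (0.04 after control-row scaling), and Erbb2 and Hbegf lie close to 0.

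The rest of the receptor and ligand family was mostly dim. Of 9 further genes, 5 were below the floor: Erbb4 (3.96 in LD and 4.02 in HD), Epgn, Nrg3, Nrg4 and Hgf, the Met ligand (3.10 and 3.13). Of the 4 tested, 2 passed as higher and none as lower, against 31.1% and 19.2% of all genes tested. Nrg2, a neuregulin, differed by 0.16 ± 0.051 SE (limma adjusted p = 0.019), and the call ended without LD replicate 1 (limma adjusted p = 0.053). Egf itself, at 5.17 in LD and 5.28 in HD, was dimmer than the median negative control row of either group (5.67 and 5.42), so its level is not above that background. It differed by 0.11 ± 0.037 SE (limma adjusted p = 0.028). Its call ended without any 1 of LD replicates 1 and 2 and HD replicates 3, 4 and 5 (0.08 to 0.11, limma adjusted p of 0.051 to 0.070), and also with median centring (0.055) or a trended variance (0.059). Mst1r, the receptor related to Met, and its ligand Mst1 differed by 0.10 and 0.096 without passing, at signals of 5.41 to 5.56 that are close to the negative controls too. Both passed after quantile normalization and control-row scaling, where 42.7% and 50.1% of all genes tested were higher. The count of higher genes in the list was then 4, as it was without LD replicate 4 or HD replicate 2 (31.1% and 30.4% of all genes). It was 0 without LD replicate 1 and under the stricter floor.

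Genes that cut the ligands free, or act on those that do, went both ways, more of them lower. Of 11 tested, 6 were lower and 2 higher in HD, against 19.2% and 31.1% of all genes tested, with a median log2 change of -0.16. Adam19, a metalloprotease that can cleave neuregulin, rose from 7.71 ± 0.081 (SD, n = 5) to 8.28 ± 0.034, 1.48-fold (0.56 ± 0.042 SE, limma adjusted p = 2.4e-07). Adam8, a metalloprotease linked to invasion, was 1.33-fold lower, and Rhbdl2, an intramembrane protease, 1.30-fold lower. Adam17, the main sheddase of Tgfa and Hbegf, fell by 0.16 (limma adjusted p = 0.0020), and Rhbdf1 and Rhbdf2, the iRhoms that carry Adam17 to the surface, fell by 0.17 and 0.20. Adam10, the main sheddase of Btc, differed by -0.03 (limma adjusted p = 0.64), and by -0.18 after control-row scaling (limma adjusted p = 0.019). These 4 genes were named after their values were seen.

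Genes that activate hepatocyte growth factor, or inhibit its activation, fell where they changed as deposited, though Hpn and Hgfac passed as higher after control-row scaling. Of 7 tested, 4 were lower and none higher, against 19.2% and 31.1% of all genes tested, with a median of -0.16. Prss8, the membrane serine protease prostasin, fell from 9.18 ± 0.071 (SD, n = 5) to 8.67 ± 0.10, 1.43-fold (-0.51 ± 0.052 SE, limma adjusted p = 3.3e-06). St14 (matriptase, an activator) was 1.15-fold lower and Spint1, which inhibits matriptase and the HGF activator, 1.14-fold lower. Hpn (hepsin), Hgfac (the HGF activator) and Spint2 differed by 0.08, -0.0024 and -0.08 without a call as deposited. After control-row scaling they differed by 0.25, 0.18 and -0.22, and all passed. Hpn (0.16) and Spint2 (-0.12) also passed after quantile normalization. Both Hpn (6.35 in LD and 6.43 in HD) and Hgfac (6.26 in each) were about as dim as Btc.

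Genes that turn receptors off went both ways. Of 21 tested, 5 were higher and 5 lower, against 31.1% and 19.2% of all genes tested, with a median of -0.03. Cblb, a ubiquitin ligase that marks activated receptors for degradation, fell from 8.73 ± 0.089 (SD, n = 5) to 8.10 ± 0.066, 1.55-fold (-0.63 ± 0.048 SE, limma adjusted p = 2.8e-07). Lrig2, of a family of membrane proteins that includes the Egfr inhibitor Lrig1, was 1.25-fold lower, and Ptpn1, a phosphatase that acts on Egfr and Met, was 1.24-fold higher. Cbl, the better known relative of Cblb, differed by -0.03, and by 0.01 on its dimmer row, without a call. Rnf41, the ubiquitin ligase that sets the level of Erbb3, fell by 0.13 (limma adjusted p = 0.0094), with overlapping groups. Errfi1, the feedback inhibitor Mig6, differed by -0.06 without a call as deposited, and by -0.10 and -0.24 with a call after quantile normalization and control-row scaling. Cbl, Rnf41 and Errfi1 were named after their values were seen.

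Downstream of the receptors the picture was mixed as well. Of 17 tested adaptor, Ras and ERK pathway genes, 5 were higher and 6 lower (median -0.03), against 31.1% and 19.2% of all genes tested. In this list, 5 further genes were not analysed here. The higher count was 3 with the replicate number as a block, with no floor, after control-row scaling, or without any 1 of LD replicates 2, 3 and 4 and HD replicates 1, 4 and 5. Gab1, a docking protein used by both Egfr and Met, fell from 7.46 ± 0.093 (SD, n = 5) to 7.05 ± 0.053, 1.33-fold (-0.42 ± 0.047 SE, limma adjusted p = 7.7e-06). Map2k1, which encodes the ERK kinase MEK1, was 1.33-fold lower, and Araf, a Raf kinase, 1.22-fold lower. In the list of PI3K, Akt, Stat, Src and Jak genes, 2 of 13 were higher and 3 lower (median -0.01), against the same shares. Akt1 and Akt2, the kinases downstream of PI3K, rose by 0.28 and 0.17, and Jak2, a cytokine receptor kinase, fell by 0.26. The Akt1 call ended after control-row scaling (0.08, limma adjusted p = 0.14).

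Genes known to respond to ERK activity moved in both directions. Of 17 tested, 8 were higher and 5 lower, with a median of 0.09. Fosl1, an AP-1 subunit, rose from 10.2 ± 0.12 (SD, n = 5) to 10.7 ± 0.075, 1.42-fold (0.51 ± 0.058 SE, limma adjusted p = 8.3e-06). Spry4, a feedback inhibitor of receptor signalling, was 1.33-fold higher, and Ier3, an immediate early gene, was 1.37-fold lower. Dusp6, a phosphatase of ERK named after its value was seen, fell by 0.25 with overlapping groups. Over all 7 lists, 24 of 90 tested genes were higher and 29 lower (median -0.02), against 31.1% and 19.2% of all genes tested and a median of 0.06; the count in each direction draws on lists chosen for their link to the receptors, and no list was tested as a set.

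**Figure D4:**
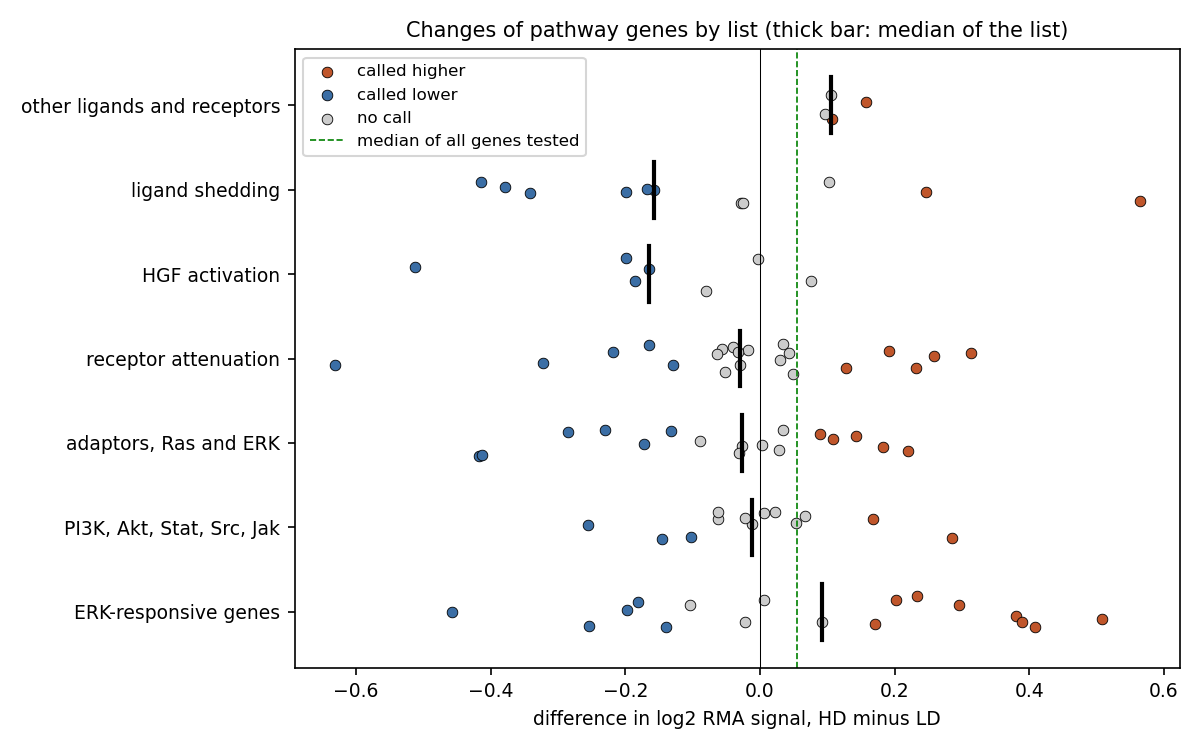
Each point is a pathway gene, placed by its difference in log2 RMA signal (HD minus LD) within its list, coloured orange where called higher, blue where called lower and grey where not called; vertical position within a list has no meaning. Thick bars mark list medians, from -0.16 (HGF activation and ligand shedding) to 0.11 (other ligands and receptors), and the dashed line marks the median of all genes tested, 0.06.

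The cells carried epithelial markers, which are not particular to the labelled line. All 9 epithelial markers lay above the floor, and the list's mean signal was 10.3 on every LD array and 9.97 to 10.1 on the HD arrays. Among the 5 that were lower in HD, the tight junction gene Cldn4, the keratin Krt19 and the adhesion gene Epcam fell by 1.09, 0.76 and 0.60. Above the floor were 5 of 8 fibroblast, 3 of 9 macrophage and 3 of 7 endothelial markers. Decorin, CD45 and CD31, the products of Dcn, Ptprc and Pecam1, are commonly used to tell these cells apart, and Dcn (3.60 in LD and 3.64 in HD), Ptprc (3.09 and 3.14) and Pecam1 (4.42 and 4.49) were below the floor, whereas Col1a1 (6.71 and 6.80), Cd68 (8.57 and 7.83), Cd14 (7.46 and 7.72) and Flt1 (8.34 and 8.26) were the brightest of these lists. The lysosomal gene Cd68 fell by 0.74 (limma adjusted p = 3.3e-06). The endotoxin co-receptor Cd14 rose by 0.26, and Col3a1, Thy1 and Tie1, all dim at 5.54 to 5.80, rose by 0.15, 0.12 and 0.17; the Col3a1 call ended with median centring, with no floor and without any 1 of LD replicates 1, 2 and 3 and HD replicates 3, 4 and 5. After control-row scaling 7 of 9 epithelial markers were lower, and Cd68 was still lower. Of the tested markers of other cells, 5 of 5 fibroblast, 2 of 3 macrophage and 2 of 3 endothelial genes were then higher. With this scaling 50.1% of all genes tested were higher and 18.7% lower. Mean signals of these lists were 4.97 to 5.09 in LD and 5.02 to 5.21 in HD for fibroblast, 5.17 to 5.24 and 5.20 to 5.26 for macrophage, and 5.20 to 5.30 and 5.26 to 5.35 for endothelial markers. Control rows also moved with the groups, and not all one way. The median negative control row was lower in HD by the values given beside Egfr, while the median positive control row was 9.21 in LD and 9.28 in HD and the background rows 3.47 and 3.63. Over arrays, the exact permutation p was 0.0079 for each of these 3 kinds (0.011 adjusted over 4 kinds, two-sided). The median ERCC row, for spike-in controls, was 4.51 in LD and 4.70 in HD (exact permutation p = 0.032, 0.032 adjusted). Control-row scaling used the negative and positive rows only.

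The genes whose signal over the 10 arrays was most like that of a changed member were found among 13082 named genes. For Btc they were Nmt2, Ublcp1, Ubxn2b, Fam98a and Ppbp, with Pearson r of 0.985 to 0.989 and Spearman rho of 0.94 to 0.98. For Erbb3 they were the matrix protein gene Tnc, Prss22, the pyruvate dehydrogenase kinase gene Pdk1, Ndrg1 and Rgs11, with r of 0.994 to 0.996 and rho of 0.89 to 0.96. Each of these genes also separated LD from HD without overlap, so the likeness holds the gap between groups. Of deviations from the group means, r was 0.82 to 0.93 for the Btc set and 0.55 to 0.77 for the Erbb3 set. These values describe 10 arrays that share their groups and normalization, and the genes were picked for high r.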

How the data were processed

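Gene expression was measured on 10 arrays of 1 colour, 5 LD and 5 HD. The deposited values are log2 signals; per the submitters' processing notes the authors used RMA, which removes background, equalises arrays, summarises probes and compresses folds. The log2 scale was inferred from their range, 1.49 to 14.3. Software and annotation: not given in the sources used here. Scanner files and scan dates were not used here, so batches could not be looked for. Precision is limited by the number of arrays.

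Of 72688 rows, 65956 were transcript rows, and 30604 had 1 symbol in the platform annotation (repeats removed; 827 symbols updated through RefSeq's gene table, GRCm38.p6). The brightest row stood for a gene, and genes above the floor were tested. The contrast HD minus LD was fitted in limma 3.58.1 under R 4.3.3, two-sided, with Benjamini-Hochberg adjustment over 18119 genes. SE is limma's moderated error; folds are ratios of RMA signals. Alternatives were the replicate number as a block, quantile normalization, median centring, control-row scaling, other floors, averaged rows, trended or robust variances, array weights, and each array left out. Single values were tested by exact permutation over arrays. The members, lists and alternatives were chosen with earlier results of these data known. Named were all members, the 3 called genes of each of 7 lists with the largest change, and the 5 genes with the highest r to the called member that changed most in each direction. Other genes are said to be named after their values were seen, except where a whole remainder, markers or members below the floor are given.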

Additional observations from a re-analysis of the deposited data

How the results depend on the processing

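Of 20 alternative settings, none turned the calls of Erbb3, Met, Tgfa or Btc, though the stricter floor (log2 6.88) left Btc and Egfr out. With that floor 3 members were called and 1 called higher, where 62.6% of all genes tested were called and 38.4% called higher. Scaling on control rows took Egfr to 0.039 (limma adjusted p = 0.56) and Hbegf to -0.11 (limma adjusted p = 0.040). Nrg1 passed when its rows were averaged (-0.22) and on its dimmer row (-0.38). Leaving out 1 array at a time kept 5 of 8 members called, and 48 to 55 of 90 pathway genes, against 42.9% to 50.3% of all genes tested. Of 400 counts compared (members, all lists and single lists), 374 stayed within 1.5 times. Those of single lists that moved were the higher counts of the further family (0 to 4) and of the adaptors (3), HGF activation (0 as deposited, 1 after quantile normalization, 2 after control-row scaling) and the Akt list (1 after control-row scaling). Same-numbered arrays did not deviate together (correlations -0.089 to 0.21, and 1 of 5 HD arrays best matched by its own number), and the numbers were taken as names only. With the replicate number as a block, 5 members and 50 pathway genes were called, and 9121 genes in all against 9101. No array stood apart from the other 4 of its group in any of 22 sets of member values. Log2 signal near the negative controls limits Egfr, Btc, Ereg, the dimmer Nrg1 row, Egf, Nrg2, Mst1r, Mst1, Hpn, Hgfac and the dim fibroblast and endothelial markers.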
